A study of Saccharomyces cerevisiae with 11 samples.

Results

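The 7 genes described here carry out trehalose synthesis and breakdown in budding yeast. They were taken by their known role in the pathway, and matched by systematic name: *TPS1* (YBR126C), *TPS2* (YDR074W), *TPS3* (YMR261C) and *TSL1* (YML100W) for synthesis, and *NTH1* (YDR001C), *NTH2* (YBR001C) and *ATH1* (YPR026W) for breakdown. They are 7 of 7126 genes in the count table, and all 7 were among the 6321 genes that passed the filter on low counts. RNA was sequenced from 11 liquid cultures of yeast that make a GFP-tagged huntingtin (Htt) fragment with a nuclear localization signal (NLS), to ask how a long glutamine tract and the STUbL subunit Slx5 alter transcription. A STUbL is a ubiquitin ligase that recognizes SUMO-modified proteins.

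The groups were 3 cultures of Htt-103Q-NLS cells that carried a *SLX5* plasmid (Htt-103Q [*SLX5*]), 3 of Htt-103Q-NLS cells that carried the empty plasmid (Htt-103Q [V]), 3 of Htt-25Q-NLS cells with the *SLX5* plasmid (Htt-25Q [*SLX5*]) and 2 of Htt-25Q-NLS cells with the empty plasmid (Htt-25Q [V]). All were cells of a W303 background that kept their own *SLX5* gene and carried the Htt construct, under the *GAL* promoter, integrated with a *LEU2* marker. The vector was a *HIS*-marked *CEN* plasmid, present in all cultures with or without *SLX5* under its own promoter. Cells were grown in raffinose medium at 25 °C and harvested 4 h after 2% galactose was added. The letters a, b and c stand for separate clones that were cultured apart. The Htt-25Q and Htt-103Q constructs sit in different integrant strains, so Htt length and strain cannot be told apart. A further Htt-25Q [V] clone, set aside by the authors for its share of rRNA, was not analysed here.

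Trehalose is a disaccharide of glucose that yeast stores in starvation and stationary phase and that protects proteins and membranes under heat and other stress. Tps1 joins UDP-glucose and glucose 6-phosphate into trehalose 6-phosphate, and Tps2 removes the phosphate; Tps3 and Tsl1 are related regulatory subunits of the same complex. Nth1 is the main neutral trehalase of the cytosol and is switched on by protein kinase A with the help of 14-3-3 proteins, Nth2 is its paralog, and Ath1 is the acid trehalase that acts on trehalose outside the cytosol. Transcription of several of these genes responds to stress through Msn2 and Msn4, which bind the stress response element (STRE).

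Each of the 7 is a single coding exon in the S288C reference annotation (RefSeq, build R64), with the same coding length as in the deposited tables. *TPS1* lies at chrII:488905-490392 on the minus strand, *TPS2* at chrIV:593893-596583 on the plus strand, *TPS3* at chrXIII:790205-793369 on the minus strand and *TSL1* at chrXIII:70624-73920 on the plus strand. *NTH1* lies at chrIV:450220-452475 and *NTH2* at chrII:238941-241283, both on the minus strand, and *ATH1* at chrXVI:615379-619014 on the plus strand. The STRE was searched as AGGGG on either strand in the 600 bases before each start codon, a window chosen after the shorter one below had been searched. It occurred 6 times before *TPS1*, 5 times before *TPS2* and *TSL1*, 3 times before *NTH1*, 2 times before *TPS3*, once before *ATH1* and not before *NTH2*. Of 6018 protein-coding genes with such a window, 39.6% had at least 1 match and 10.7% had 2 or more. In a window of 250 bases before to 50 after the start, 4 of the 7 genes had a match, as did 21.6% of 6020 genes. The core of the heat shock element, GAANNTTC on either strand, was found in the 600 bases before *TSL1*, *NTH2* and *ATH1*, and in the same window of 22.7% of genes.

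The densest STRE stretch before each gene that has one is printed to show how the matches are spaced. Each runs 5′ to 3′ on the strand of its gene, with AGGGG or its complement CCCCT in capitals, from the R64 genome; a match is a description of the letters and no measure of binding.
*TPS1*, chrII:490617-490707, minus strand: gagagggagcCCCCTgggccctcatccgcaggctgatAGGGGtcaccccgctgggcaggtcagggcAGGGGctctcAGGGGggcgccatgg
*TPS2*, chrIV:593360-593486, plus strand: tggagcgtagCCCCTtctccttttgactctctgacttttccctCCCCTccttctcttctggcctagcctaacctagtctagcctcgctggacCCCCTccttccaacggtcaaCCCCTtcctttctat
*TPS3*, chrXIII:793572-793614, minus strand: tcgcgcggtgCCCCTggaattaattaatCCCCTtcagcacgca
*TSL1*, chrXIII:70383-70473, plus strand: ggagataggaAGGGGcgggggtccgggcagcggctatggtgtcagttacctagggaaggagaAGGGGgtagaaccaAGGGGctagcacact
*NTH1*, chrIV:452803-452835, minus strand: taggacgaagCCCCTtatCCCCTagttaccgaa
*ATH1*, chrXVI:615065-615089, plus strand: ctcttctttgCCCCTcaaaatttat

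Library totals ran from 19942070 to 29440801 estimated counts, and each of the 7 genes had between 1186 and 41272 counts in each library, all of them whole numbers. *SLX5* itself was counted at 494 to 752 counts-per-million (CPM, TMM-normalized) in Htt-103Q [*SLX5*], at 50.1 to 65.2 CPM in Htt-103Q [V], at 1147 to 1216 CPM in Htt-25Q [*SLX5*] and at 94.4 to 99.6 CPM in Htt-25Q [V]. *GAL1*, a galactose-induced gene, was lower in Htt-103Q than in Htt-25Q cultures: 2810 to 4419 CPM in Htt-103Q [*SLX5*], 1626 to 3277 in Htt-103Q [V], 8216 to 8897 in Htt-25Q [*SLX5*] and 7226 to 7954 in Htt-25Q [V]. *GAL1* thus moved with Htt length, as several of the trehalose genes did, and its part in their levels was not tested. The 4 libraries with clone letter a held 1.02% to 2.40% of rRNA gene counts, and the other 7 held 0.254% to 0.958%. In these bulk cultures, fewer cells with a transcript and less of it per cell cannot be told apart.

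The level of each transcript relative to the others was read from the authors' TPM, which account for gene length. *TPS1* was the highest of the 7 in each group, at 564 ± 56.5 TPM in Htt-103Q [*SLX5*], 449 ± 84.8 in Htt-103Q [V] and 629 ± 26.7 in Htt-25Q [*SLX5*] (mean ± SD, n = 3 each), and at 557 ± 1.08 in Htt-25Q [V] (n = 2). *TPS2* came next, with 302 ± 15.4, 206 ± 74.9, 303 ± 25.9 and 324 ± 18.3 TPM in the same order of groups. *TSL1* followed with 131 ± 16.8 TPM in Htt-103Q [*SLX5*], 72.3 ± 37.5 in Htt-103Q [V], 193 ± 17.2 in Htt-25Q [*SLX5*] and 184 ± 2.59 in Htt-25Q [V]. The catalytic subunits of synthesis were thus the most abundant transcripts of the pathway, and *TSL1* was above its relative *TPS3* in every culture. *NTH1* ranked above *TPS3*, *NTH2* and *ATH1* with 85.8 ± 6.62, 56.9 ± 15.6, 134 ± 3.99 and 118 ± 3.65 TPM. *TPS3* held 48.2 ± 5.63, 37.7 ± 7.51, 50.4 ± 3.67 and 48.4 ± 1.61 TPM. *NTH2* held 23.1 ± 0.738, 18.2 ± 3.76, 27.4 ± 1.18 and 26.7 ± 0.523 TPM, and *ATH1* was the lowest with 14.3 ± 1.12, 11.3 ± 2.81, 13.4 ± 0.778 and 11.7 ± 0.0495. The order of the 7 was the same in all 4 groups, and within a group each gene lay above the next in all cultures, with the exception of *TSL1* and *NTH1* in Htt-103Q [V], whose ranges overlapped.

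With empty vector, 6 of the 7 genes fell in Htt-103Q [V] relative to Htt-25Q [V], where 29.5% of all tested genes fell (edgeR's quasi-likelihood test, adjusted p under 0.05). All 4 synthesis genes and both neutral trehalases were among them. The median log2 fold change of the 7 was -0.67, against -0.02 over all tested genes. The 4 synthesis genes and 2 of the 3 breakdown genes were thus lower together, with *TSL1* and *NTH1* showing the largest differences on the 2 sides of the pathway, and the acid trehalase gene *ATH1* was not called.

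*TSL1*, a regulatory subunit, was counted at 207, 302 and 565 CPM in Htt-103Q [V] cultures a, b and c, against 981 and 987 CPM in Htt-25Q [V] cultures a and b. Every Htt-103Q [V] culture lay below both Htt-25Q [V] cultures, and culture c lay well above a and b. The log2 fold change of -1.46 (SE 0.30, adjusted p = 0.00158) was exceeded downward by 69 genes, 1.09% of those tested. *TPS2*, the phosphatase, was counted at 580, 734 and 1155 CPM in Htt-103Q [V], against 1465 and 1333 CPM in Htt-25Q [V]. Culture c again lay nearest to the Htt-25Q [V] cultures without reaching them. The fall was 0.77 on the log2 scale (SE 0.21, adjusted p = 0.00857). *TPS1*, the synthase, was counted at 795, 866 and 1123 CPM in Htt-103Q [V], against 1258 and 1237 CPM in Htt-25Q [V], a log2 change of -0.43 (SE 0.13, adjusted p = 0.0146). *TPS3*, the other regulatory subunit, was counted at 155, 162 and 219 CPM in Htt-103Q [V], against 244 and 252 CPM in Htt-25Q [V], a log2 change of -0.47 (SE 0.14, adjusted p = 0.0129). Both falls were smaller than that of *TSL1*, and culture c was the highest of its group for both.

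On the breakdown side, *NTH1* was counted at 144, 175 and 244 CPM in Htt-103Q [V], against 414 and 426 CPM in Htt-25Q [V]. The highest Htt-103Q [V] culture was still far below either Htt-25Q [V] culture. Its log2 fold change was -1.17 (SE 0.16, adjusted p = 0.000171), and 137 genes, 2.17% of those tested, lay below it. *NTH2* was counted at 53.4, 56.6 and 76.9 CPM in Htt-103Q [V], against 101 and 97.1 CPM in Htt-25Q [V], a log2 change of -0.67 (SE 0.12, adjusted p = 0.000883). *ATH1* behaved differently in that its groups overlapped: it was counted at 48.9, 57.9 and 79.0 CPM in Htt-103Q [V], with culture c above and a and b below the 69.7 and 69.1 CPM in Htt-25Q [V]. Its log2 fold change of -0.16 (SE 0.15, adjusted p = 0.378) had a 95% interval of -0.50 to 0.17, which still holds the value of *TPS3* (-0.47). *NTH1* and *NTH2* share 72.0% of aligned coding bases with no identical run above 33 bases, and the pair *TPS3* and *TSL1* shares 64.1% with no run above 15.

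**Figure D1:**
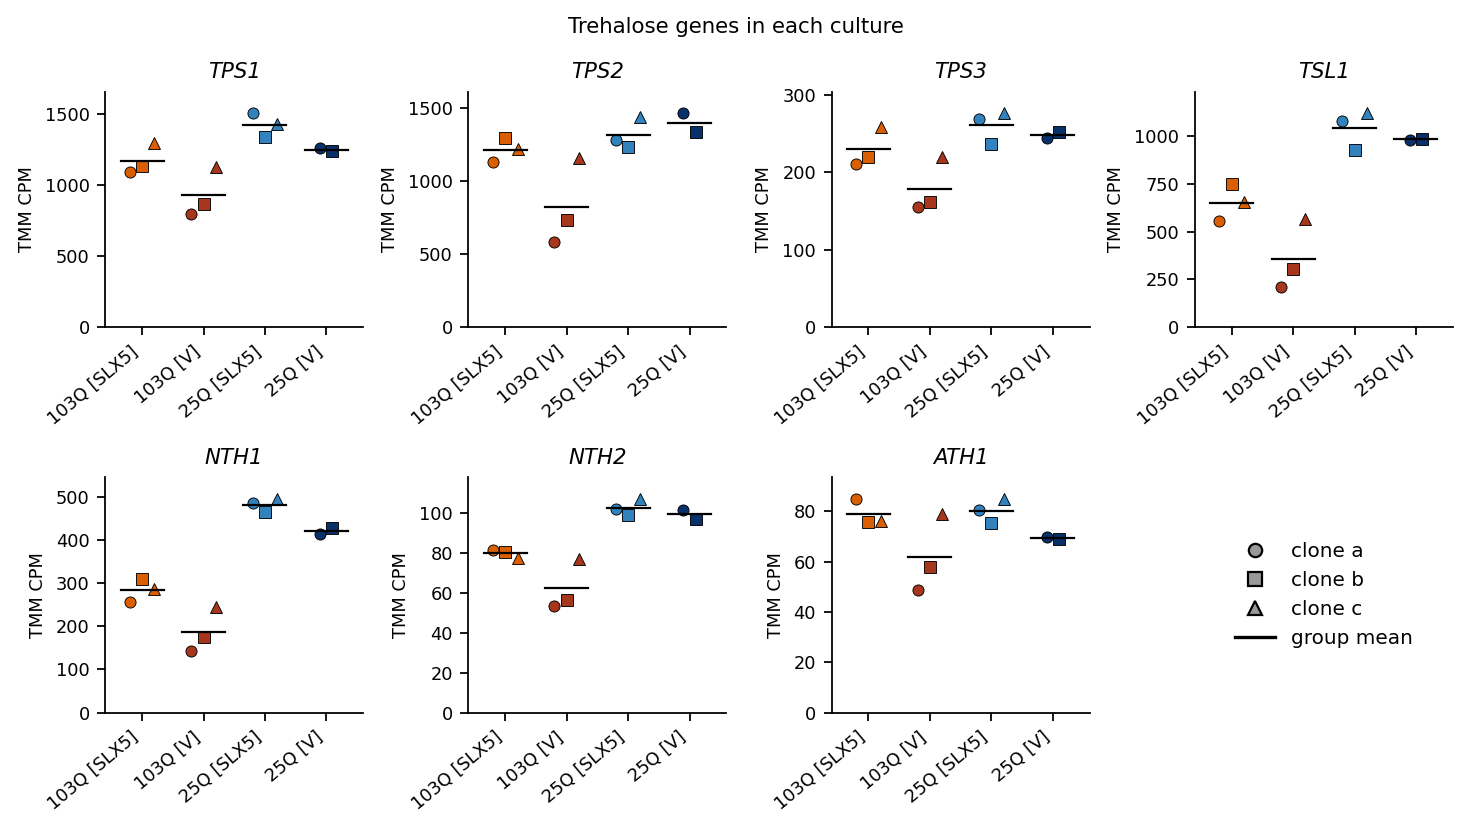
Level of each of the 7 genes in TMM-normalized CPM (vertical axis, from 0) in the 11 cultures of 4 groups (horizontal axis), with 1 symbol per culture, shaped by clone letter, and a line at the group mean. Clone c of Htt-103Q [V] is the highest of its group for all 7 genes, and the *NTH1* values of Htt-103Q [V] (144 to 244 CPM) lie below those of all 3 other groups.

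*TSL1*, *NTH1* and *NTH2* were called in all 20 alternative settings, with log2 fold changes of -1.93 to -1.17, -1.39 to -0.998 and -0.84 to -0.54. Those of *TPS1*, *TPS2* and *TPS3* crossed the threshold in some settings. Leaving out either Htt-25Q [V] culture leaves that group with 1 culture, which is then assumed to vary like the other groups. Without culture a, *TPS1* had a log2 change of -0.41 (adjusted p = 0.0687) and *TPS2* one of -0.70 (adjusted p = 0.0564), and without culture b *TPS1* had -0.44 (adjusted p = 0.0608) and *TPS3* had -0.45 (adjusted p = 0.0725). These folds lay close to those with all cultures. Without Htt-103Q [V] culture b, *TPS1* had -0.37 (adjusted p = 0.0556) and *TPS3* had -0.40 (adjusted p = 0.0522), and *TPS1* had -0.41 (adjusted p = 0.0528) in a fit of the compared groups alone. Without Htt-103Q [V] culture c, *ATH1* fell as well (log2 fold change -0.36, adjusted p = 0.00631), and all 7 genes were called, where 30.8% of tested genes fell. Over the 20 settings the adjusted p ran from 0.000313 to 0.154 for *TPS1*, from 2.29e-05 to 0.114 for *TPS2*, from 0.000339 to 0.120 for *TPS3* and from 0.00631 to 0.966 for *ATH1*.

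With plasmid *SLX5* in both strains, only the neutral trehalases were called lower in Htt-103Q [*SLX5*] than in Htt-25Q [*SLX5*], 2 of 7, where 26.6% of tested genes fell. *NTH1* was counted at 256, 310 and 287 CPM in Htt-103Q [*SLX5*], against 484, 465 and 495 CPM in Htt-25Q [*SLX5*]. The groups stood apart, and the log2 fold change was -0.76 (SE 0.15, adjusted p = 0.00142). *NTH2* was counted at 81.6, 80.4 and 77.4 CPM in Htt-103Q [*SLX5*], against 102, 98.7 and 107 CPM in Htt-25Q [*SLX5*], a log2 change of -0.36 (SE 0.11, adjusted p = 0.0169). Its call was lost without Htt-25Q [*SLX5*] culture c (adjusted p = 0.0578) or Htt-103Q [*SLX5*] culture c (adjusted p = 0.0571), with a range of 0.000273 to 0.0633 over 20 settings.

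The 4 synthesis genes did not pass this test. *TSL1* was counted at 556, 747 and 654 CPM in Htt-103Q [*SLX5*], against 1081, 929 and 1122 CPM in Htt-25Q [*SLX5*], with a log2 change of -0.68 (SE 0.27, adjusted p = 0.0517). *TPS1* was counted at 1087, 1130 and 1295 CPM in Htt-103Q [*SLX5*], against 1504, 1333 and 1428 CPM in Htt-25Q [*SLX5*], with -0.28 (SE 0.12, adjusted p = 0.0606). Both sat just outside the threshold, and their calls depended on the tool and the fit. A likelihood ratio procedure first kept the genes that differed among any of the groups. The study describes such a first step, by an F-like test, and does not name a likelihood ratio test. This procedure called both (adjusted p = 0.0184 for *TSL1* and 0.0464 for *TPS1*), where 41.2% of the genes that reached its second step fell. Both were also called in the compared groups alone (adjusted p = 0.000909 and 0.0184), where 28.4% of genes fell, and with the clone letter as a block (adjusted p = 0.0272 and 0.0258), where 26.4% fell. DESeq2's Wald test called *TPS1* (adjusted p = 0.0423), which with *NTH1* and *NTH2* makes 3 of 7, where 27% of genes fell. The quasi-likelihood test on genes that averaged at least 10 CPM called *TSL1* (adjusted p = 0.0486), where 28.2% of those genes fell. Both genes passed the quasi-likelihood test as well when a single culture of a group outside the comparison was left out. Without Htt-103Q [V] culture a the adjusted p was 0.0100 for *TSL1* and 0.0386 for *TPS1*, where 27.6% of genes fell. Without Htt-103Q [V] culture c it was 0.00136 and 0.0103, where 28.2% fell. *TPS1* also passed without Htt-103Q [*SLX5*] culture c (adjusted p = 0.0423), where 22.2% fell. Over 20 settings the adjusted p ran from 0.000909 to 0.163 for *TSL1* and from 0.0103 to 0.297 for *TPS1*.

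*TPS2* was counted at 1128, 1293 and 1218 CPM in Htt-103Q [*SLX5*], against 1280, 1233 and 1439 CPM in Htt-25Q [*SLX5*]. *TPS3* was counted at 211, 220 and 258 CPM in Htt-103Q [*SLX5*], against 269, 237 and 276 CPM in Htt-25Q [*SLX5*]. The groups overlapped for both, with log2 fold changes of -0.12 (95% interval -0.53 to 0.29) and -0.18 (-0.46 to 0.09). *ATH1* was counted at 84.9, 75.8 and 76.3 CPM in Htt-103Q [*SLX5*], against 80.6, 75.3 and 85.0 CPM in Htt-25Q [*SLX5*], with a log2 fold change of -0.02 (-0.32 to 0.27). The median over the 7 was -0.28, against -0.01 over all tested genes.

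**Figure D2:**
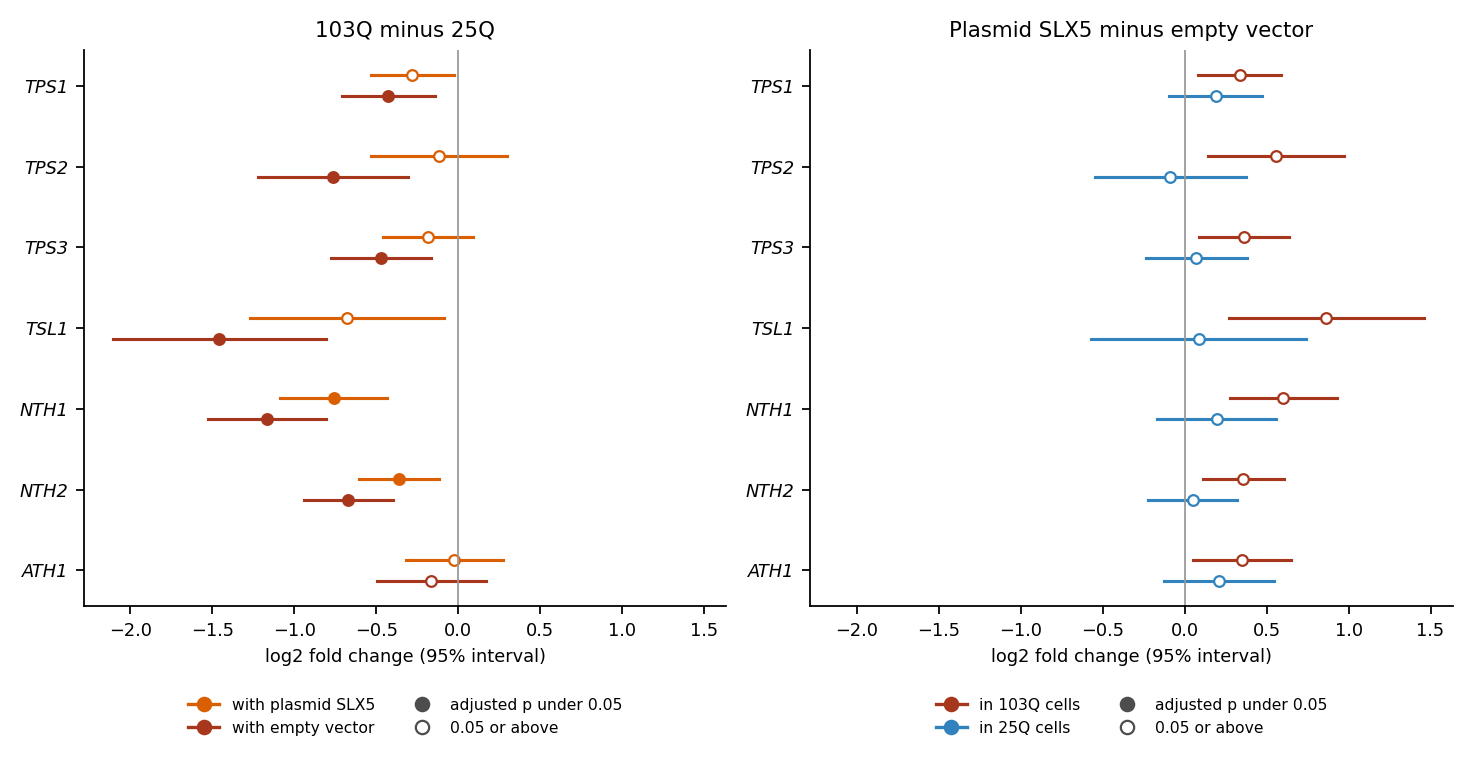
Log2 fold change of each gene (point) with its 95% interval (line) for Htt-103Q minus Htt-25Q (left, with plasmid *SLX5* and with empty vector) and for plasmid *SLX5* minus empty vector (right, in Htt-103Q and in Htt-25Q cells); filled points have an adjusted p under 0.05 by edgeR's quasi-likelihood test. Filled points occur in the left panel only, where *TSL1* with empty vector lies farthest from 0 at -1.46.

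The effect of plasmid *SLX5* in Htt-103Q-NLS cells is the comparison of Htt-103Q [*SLX5*] with Htt-103Q [V]. All 7 fold changes were positive and none was called; 0.0158% of tested genes, which is *SLX5* itself, were called. The unadjusted p was under 0.05 for all 7, as for 1468 of the 6321 tested genes. *TSL1* had a log2 change of 0.86 (SE 0.27, adjusted p = 0.151), and 38 genes, 0.601% of those tested, lay above it. *NTH1* had 0.60 (SE 0.15, adjusted p = 0.125) and *TPS2* had 0.56 (SE 0.19, adjusted p = 0.154). The other 4 lay close together, with *TPS3* at 0.36 (SE 0.13), *NTH2* at 0.36 (SE 0.11), *ATH1* at 0.35 (SE 0.14) and *TPS1* at 0.33 (SE 0.12), and adjusted p between 0.151 and 0.171. The median of the 7 was 0.36, against 0.00 over all tested genes.

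This result turned on 1 culture. Htt-103Q [V] cultures a and b lay below all 3 cultures of Htt-103Q [*SLX5*] for all 7 genes. Htt-103Q [V] culture c was the highest of its group for all 7, from 1.30 times the higher of a and b for *TPS1* to 1.87 times for *TSL1*. It reached the range of Htt-103Q [*SLX5*] for 5 genes, and for *NTH1* (244 CPM against a lowest 256) and *NTH2* (76.9 CPM against a lowest 77.4) it lay just below. These positions of cultures a, b and c against Htt-103Q [*SLX5*] are given without a share over all tested genes. Culture c was also the highest of its group for 70.4% of the 1864 genes that fell in Htt-103Q [V] relative to Htt-25Q [V], and for 42.7% of all tested genes. Its *SLX5* level was 65.2 CPM, against at least 494 CPM in any culture of Htt-103Q [*SLX5*], and its *GAL1* level was 3277 CPM, against 1626 and 2188 CPM in a and b. The part of galactose induction in these levels was not tested.

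Without Htt-103Q [V] culture c, all 7 genes were called higher in Htt-103Q [*SLX5*], as were 14.1% of the 6318 genes then tested. The log2 fold change was then 1.35 for *TSL1* (adjusted p = 0.000934), 0.88 for *TPS2* (adjusted p = 0.00109) and 0.83 for *NTH1* (adjusted p = 0.000861). It lay between 0.49 and 0.56 for *TPS1*, *TPS3*, *NTH2* and *ATH1*. Leaving out culture a or b in place of c left no call, with log2 fold changes of 0.59 and 0.75 for *TSL1* and 0.44 and 0.55 for *NTH1*. Tools differed as well with all cultures kept. DESeq2's Wald test called *NTH1* (adjusted p = 0.00614) and *TPS2* (adjusted p = 0.0473), with 3.03% of genes called higher. The likelihood ratio procedure called *NTH1* (adjusted p = 0.00920), *TSL1* (adjusted p = 0.0352) and *NTH2* (adjusted p = 0.0448), with 4.98% of the 4158 genes that reached its second step called higher. The study's own list of genes altered by plasmid *SLX5* in Htt-103Q-NLS cells includes *TSL1*, *TPS2*, *NTH1* and *NTH2*. Over 20 settings the adjusted p of *NTH1* ran from 0.000861 to 0.456, that of *TSL1* from 0.000934 to 0.489, that of *TPS2* from 0.00109 to 0.489 and that of *NTH2* from 0.00107 to 0.561.

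**Figure D3:**
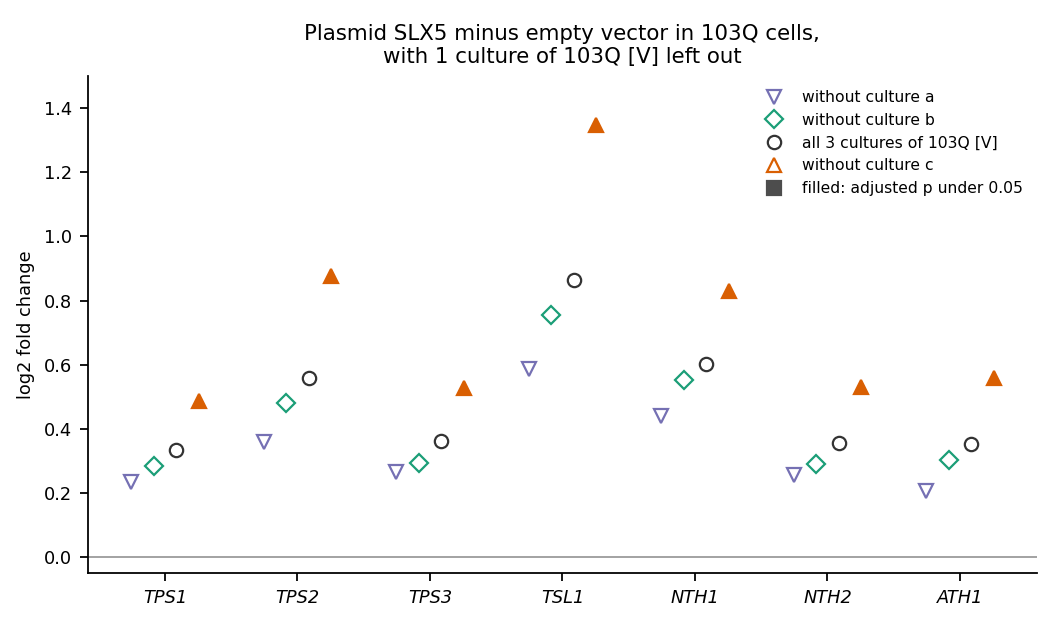
Log2 fold change of Htt-103Q [*SLX5*] minus Htt-103Q [V] (vertical axis) for each gene (horizontal axis) with all cultures and without 1 culture of Htt-103Q [V] at a time; filled symbols have an adjusted p under 0.05 by edgeR's quasi-likelihood test. The symbols without culture c are the highest for each gene, up to 1.35 for *TSL1*, and are the filled ones.

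In Htt-25Q-NLS cells, where Htt-25Q [*SLX5*] is compared with Htt-25Q [V], none of the 7 genes was called, against 0.0475% of tested genes. None had an unadjusted p under 0.05, and DESeq2 and the likelihood ratio procedure called none. The log2 fold changes ran from -0.09 for *TPS2* (95% interval -0.55 to 0.37) to 0.21 for *ATH1* (-0.12 to 0.55). *TSL1*, with 1081, 929 and 1122 CPM in Htt-25Q [*SLX5*] and 981 and 987 CPM in Htt-25Q [V], had 0.09 (-0.57 to 0.74). *TPS1*, *NTH1* and *ATH1* had log2 fold changes of 0.19, 0.20 and 0.21, with adjusted p of 0.695, 0.747 and 0.709 by the quasi-likelihood test. A p that misses the threshold does not show equal levels here, and all 7 intervals include 0.

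Whether the effect of *SLX5* differed between the 2 Htt lengths was tested as an interaction. None of the 7 was called, and neither was any other gene (0% of those tested, 348 genes at an unadjusted p under 0.05). All 7 estimates were positive. *TSL1* had 0.78 (95% interval -0.10 to 1.66, adjusted p = 0.792) and *TPS2* 0.65 (0.03 to 1.26, adjusted p = 0.792), and the others lay between 0.14 and 0.41. *TPS2* alone had an unadjusted p under 0.05, and no member was called by DESeq2 or the likelihood ratio procedure. The 95% interval included 0 for the other 6.

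Averaged over both Htt lengths, the effect of *SLX5* was positive for all 7 and called for none, against 0.221% of tested genes. The unadjusted p was under 0.05 for 6 of them, as for 1536 of the 6321 tested genes. *NTH1* had a log2 difference of 0.40 (SE 0.11, adjusted p = 0.103), *TSL1* 0.47 (SE 0.20, adjusted p = 0.182) and *TPS1* 0.26 (SE 0.09, adjusted p = 0.126). DESeq2 called *NTH1* (adjusted p = 0.0130) and *TPS1* (adjusted p = 0.0430), with 4.42% of genes called higher. The likelihood ratio procedure called *NTH1* (adjusted p = 0.0186), with 6.23% of the 4158 genes that reached its second step called higher. Without Htt-103Q [V] culture c all 7 were called higher, as were 12.8% of tested genes. The comparisons above share cultures, so their values are set side by side and are not independent of each other.

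In the make-up of the pathway, some ratios of the authors' TPM within a culture also parted the strains. These ratios are given as a description, without a test. *TPS1* per *TPS2* did not part them, at 1.69 to 2.05 in Htt-103Q [*SLX5*] and 1.88 to 2.64 in Htt-103Q [V]. It was 1.91 to 2.26 in Htt-25Q [*SLX5*] and 1.65 to 1.79 in Htt-25Q [V]. *TSL1* stood at 2.53, 3.25 and 2.42 times *TPS3* in Htt-103Q [*SLX5*] cultures a, b and c and at 1.28, 1.79 and 2.47 times in Htt-103Q [V]. In Htt-25Q [*SLX5*] it stood at 3.85, 3.76 and 3.89 times and in Htt-25Q [V] at 3.85 and 3.74 times. All 6 Htt-103Q-NLS cultures lay below all 5 Htt-25Q-NLS cultures. *TSL1* made up 12.5% of the summed TPM of the 4 synthesis genes in Htt-103Q [*SLX5*], 9.05% in Htt-103Q [V], 16.4% in Htt-25Q [*SLX5*] and 16.5% in Htt-25Q [V] (group means). *NTH1* stood at 3.27 to 4.01 times *NTH2* in Htt-103Q [*SLX5*], 2.81 to 3.30 times in Htt-103Q [V], 4.82 to 4.95 times in Htt-25Q [*SLX5*] and 4.26 to 4.58 times in Htt-25Q [V].

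*TPS1* per *NTH1*, the main synthase over the main trehalase, ran the other way. It was 5.82 to 7.18 in Htt-103Q [*SLX5*], 7.35 to 8.80 in Htt-103Q [V], 4.56 to 4.94 in Htt-25Q [*SLX5*] and 4.61 to 4.83 in Htt-25Q [V]. The groups of Htt-103Q-NLS cells lay above those of Htt-25Q-NLS cells. Htt-103Q [V] lay above Htt-103Q [*SLX5*] by a small margin, with nearest values of 7.35 (culture c) and 7.18. This ratio is formed from levels given above, and its difference between groups was not tested. Summed over the genes of each side, the synthesis transcripts came to 1045, 765, 1176 and 1114 TPM and the trehalase transcripts to 123, 86.3, 175 and 156 TPM in Htt-103Q [*SLX5*], Htt-103Q [V], Htt-25Q [*SLX5*] and Htt-25Q [V]. The ratio of the 2 sums was 8.14 to 9.05 in Htt-103Q [*SLX5*], 8.72 to 8.97 in Htt-103Q [V], 6.48 to 6.91 in Htt-25Q [*SLX5*] and 6.95 to 7.29 in Htt-25Q [V]. Both sums were thus lower in Htt-103Q [V] than in Htt-25Q [V], that of the trehalase genes by the larger factor.

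**Figure D4:**
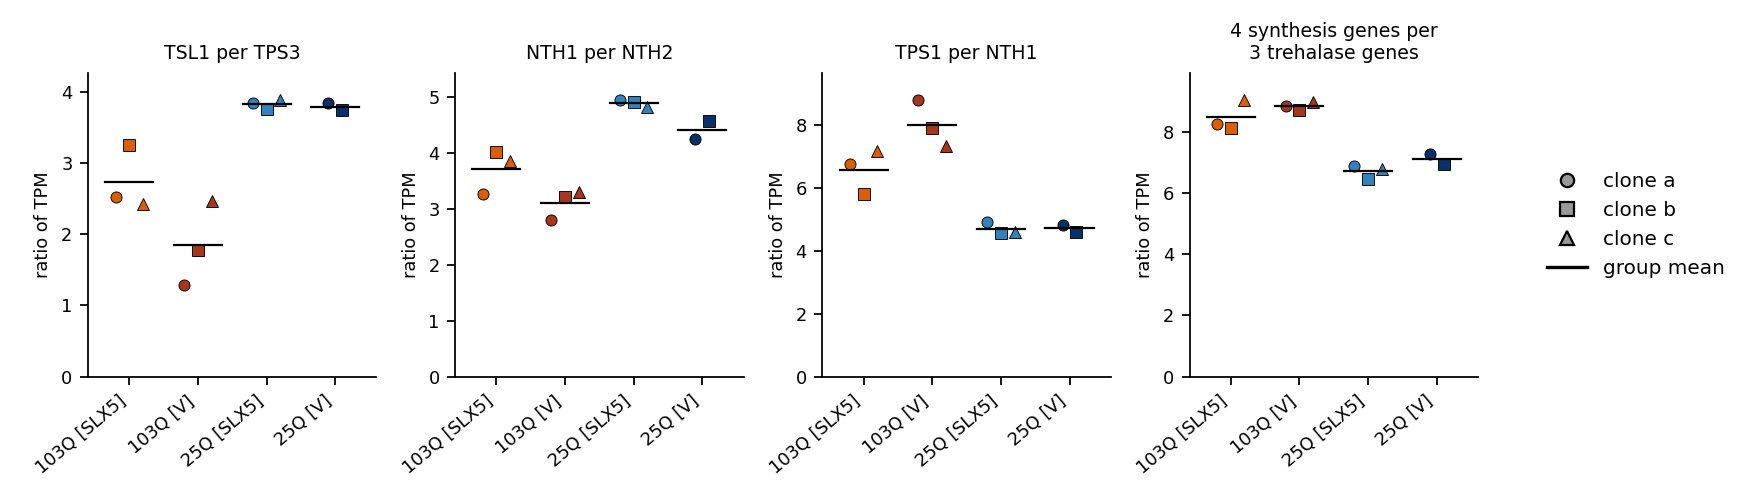
Ratios of the authors' TPM within each culture (vertical axis, from 0) for *TSL1* per *TPS3*, *NTH1* per *NTH2*, *TPS1* per *NTH1* and the summed synthesis genes per summed trehalase genes, by group (horizontal axis), with 1 symbol per culture and a line at the group mean. *TPS1* per *NTH1* is 7.35 to 8.80 in Htt-103Q [V] and 4.61 to 4.83 in Htt-25Q [V].

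Genes that feed or control the pathway were counted in lists with known members. Of 6 genes that supply glucose 6-phosphate, glucose 1-phosphate and UDP-glucose, 4 fell in Htt-103Q [V] relative to Htt-25Q [V], where 29.5% of all tested genes fell, and 2 were not called. *PGM2*, the major phosphoglucomutase, was counted at 213, 354 and 721 CPM in Htt-103Q [V], against 1626 and 1800 CPM in Htt-25Q [V]. Its log2 fold change was -2.00 (SE 0.36, adjusted p = 0.000782), beyond the -1.46 of *TSL1*. *UGP1*, which makes UDP-glucose, fell by 1.09 on the log2 scale (SE 0.20), glucokinase (*GLK1*) by 1.23 (SE 0.21) and hexokinase 1 (*HXK1*) by 0.83 (SE 0.22). The isozymes hexokinase 2 (*HXK2*) and phosphoglucomutase 1 (*PGM1*) had 0.09 (SE 0.07) and 0.08 (SE 0.08) and were not called. The same 4 genes fell and the same 2 were not called in Htt-103Q [*SLX5*] relative to Htt-25Q [*SLX5*], where 26.6% of tested genes fell.

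Of 7 genes for kinase and trehalase regulators, 5 fell in Htt-103Q [V] relative to Htt-25Q [V], 1 rose and 1 was not called, where 29.5% of all tested genes fell and 27.3% rose. *DCS2*, a paralog of *DCS1*, whose product has been described as a trehalase inhibitor, was counted at 123, 148 and 215 CPM in Htt-103Q [V], against 290 and 324 CPM in Htt-25Q [V] (log2 fold change -0.92, SE 0.18, adjusted p = 0.00117). *DCS1* fell by 0.47 (SE 0.17). *TPK2*, a catalytic subunit of protein kinase A, fell by 0.80 (SE 0.18), whereas *TPK3*, another, rose by 0.70 (SE 0.10). The regulatory subunit of the kinase, *BCY1*, fell by 0.40 (SE 0.10). Of the 14-3-3 genes, *BMH1* fell by 0.37 (SE 0.07) and *BMH2* had -0.05 (SE 0.09). With plasmid *SLX5*, 4 of the 7 fell and *TPK3* rose by 0.72 (SE 0.09), where 26.6% of tested genes fell and 26.9% rose.

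Among 5 transcription regulators, *RIM15* and *MSN4* each rose by 0.37 (SE 0.07 and 0.12), while *HSF1* and *MSN2* fell by 0.23 (SE 0.07) and 0.22 (SE 0.08) and *GIS1* was not called, in Htt-103Q [V] relative to Htt-25Q [V]. With empty vector the 2 activators that bind the STRE thus moved in opposite directions, by less than most of the trehalose genes did. The call of *MSN2* lay near the threshold (adjusted p = 0.0399 by the quasi-likelihood test). With plasmid *SLX5*, *MSN2* had 0.0004 (SE 0.08) and was not called, and *MSN4* rose by 0.34 (SE 0.10). *MAL11*, a transporter of alpha-glucosides that takes up trehalose, rose by 1.07 (SE 0.09, adjusted p = 1.35e-05), with 76.4, 72.6 and 79.5 CPM in Htt-103Q [V] against 34.5 and 38.1 CPM in Htt-25Q [V]. In Htt-103Q [*SLX5*] relative to Htt-25Q [*SLX5*] it rose by 0.70 (SE 0.08). Of the 19 listed genes 11 fell with empty vector, where 29.5% of tested genes fell. Without Htt-103Q [V] culture a, b or c, 8, 8 and 12 of them fell, where 25.4%, 24.3% and 30.8% of tested genes did. None of these 19 genes was called for *SLX5* in Htt-103Q cells by the quasi-likelihood test, which called 0.0158% of all genes. DESeq2 called *DCS2* (adjusted p = 0.00264) and *GLK1* (adjusted p = 0.0293) higher in Htt-103Q [*SLX5*], where 3.03% of genes were called higher. The likelihood ratio procedure called *DCS2* (adjusted p = 0.00435), *PGM2* (adjusted p = 0.0417) and *GLK1* (adjusted p = 0.0447) higher, where 4.98% of the genes that reached its second step were. Without Htt-103Q [V] culture c the quasi-likelihood test called 9 of the 19 higher and 1 lower, against 14.1% of tested genes higher and 11.9% lower. With all cultures in the quasi-likelihood test, *DCS2* had 242, 259 and 289 CPM in Htt-103Q [*SLX5*] against the values of Htt-103Q [V] above, with a log2 change of 0.70 (SE 0.16, adjusted p = 0.119), and *PGM2* had 1.01 (SE 0.33, adjusted p = 0.153).

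**Figure D5:**
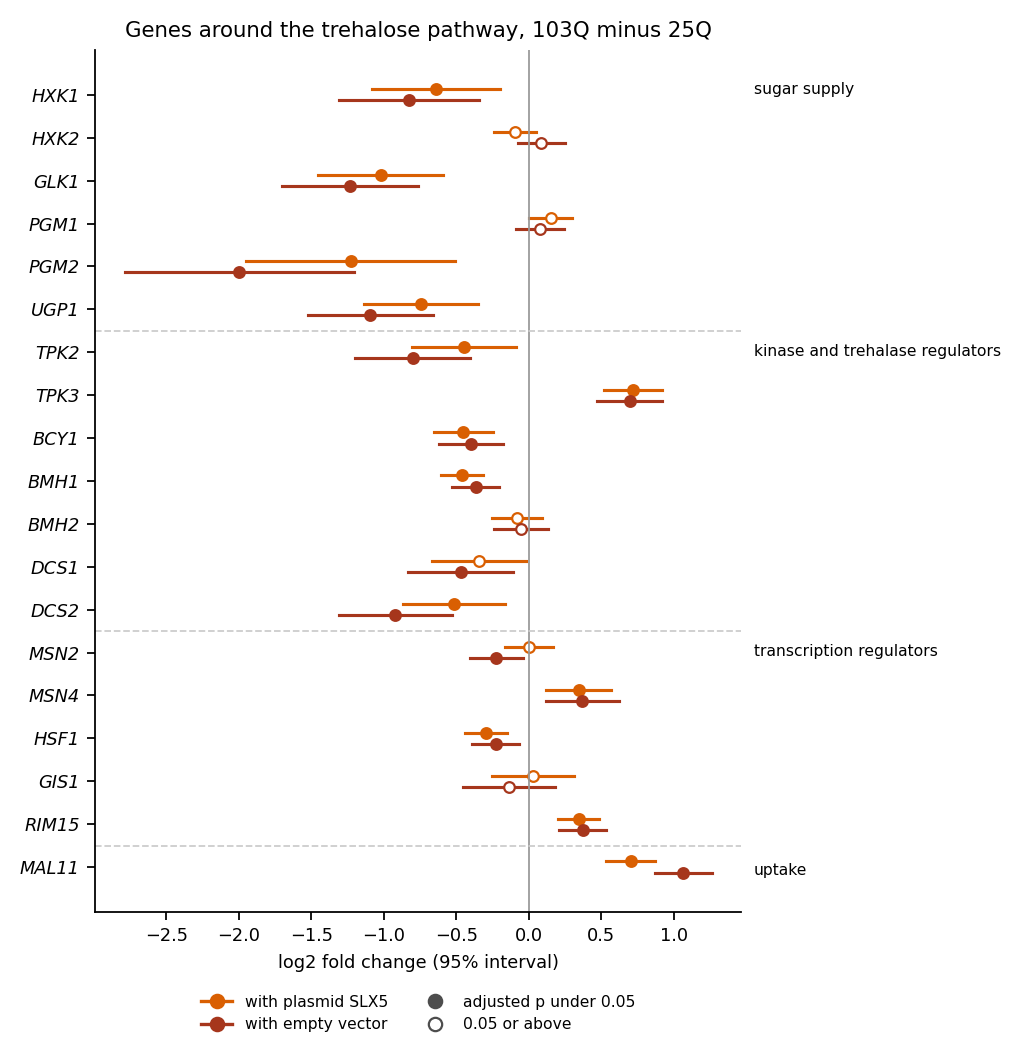
Log2 fold change (horizontal axis, point) with its 95% interval (line) for Htt-103Q minus Htt-25Q, with plasmid *SLX5* and with empty vector, for 19 genes around the trehalose pathway grouped by role (rows); filled points have an adjusted p under 0.05 by edgeR's quasi-likelihood test. *PGM2* with empty vector lies lowest at -2.00 and *MAL11* highest at 1.07.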

How the data were processed

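RNA was measured in 11 cultures, grouped by their labels alone. The authors ran bcl2fastq 2.17 and Trimmomatic 0.36, mapped the reads to S288C (build EF4) by STAR 2.5.1 and quantified them by RSEM 1.2.22. The deposited values are expected counts and TPM per gene; the authors' TPM were used to compare genes and the expected counts to compare groups. The labels name an mRNA kit and the methods a total RNA kit, both stranded, and the strand setting of the counting is not given in the sources used here. Of the expected counts, 16.5% are not whole, and they were rounded.

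Genes were kept by filterByExpr, scaled by TMM and fitted over all 11 libraries in 1 model with a mean per group, using R 4.3.3 and edgeR 4.0.16. Differences were tested with the quasi-likelihood test, two-sided, with Benjamini-Hochberg adjustment over 6321 genes, and an adjusted p under 0.05 is called. The SE is the size of the log2 fold change over the square root of the F statistic, and 95% intervals use the test's degrees of freedom. Cultures of a group varied with a common dispersion of 0.0121, or 11.0% as a coefficient of variation. Replicate pairs differed by a chi-square per gene of 12.9 to 86.6, so no library was a copy of another. The test and DESeq2 were run on simulated data with the same dispersion for all genes and no outlying culture. Those data lack a culture like Htt-103Q [V] culture c, and no result here rests on them.

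Alternatives were DESeq2 1.42.0, the likelihood ratio procedure, RLE size factors, no filter and a mean of at least 10 CPM. Others were counts not rounded, the compared groups alone, a replicate block and leaving out each library. The study's methods state an edgeR GLM with an F-like first step and do not name the test of the pairs of groups. Leaving out the 4 clone a libraries together was added after their rRNA shares were seen. The 7 genes, the pathway lists and the tests were chosen with earlier results of these data known. A gene of the list of kinase and trehalase regulators is not reported here. The text names the 7 genes, the listed pathway genes, chromosomal neighbours and, for each of the 7, the 2 genes with the most similar pattern. Sequences and positions come from RefSeq R64 by gene ID, not from the EF4 build; 5999 of 6007 matched genes had the same coding length in both. Python 3.11.15, pandas 2.3.3, numpy 2.4.6, Biopython 1.88 and matplotlib 3.10.9 were used.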

Additional observations from a re-analysis of the deposited data

How the results depend on the processing

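For Htt-103Q [V] against Htt-25Q [V], 4 to 7 genes fell when each library was left out in turn, where 20.2% to 30.8% of all genes did, and 3 (*TSL1*, *NTH1* and *NTH2*) without the libraries of clone letter a, where 18.4% did, which leaves 1 culture of Htt-25Q [V], assumed to vary like the other groups. For Htt-103Q [*SLX5*] against Htt-25Q [*SLX5*], where 2 were called, 4 fell by the likelihood ratio procedure (41.2% of the 4158 genes that reached its second step). In a fit of the compared groups alone 4 fell (28.4% of all genes). DESeq2 called 3 lower (27%), and 3 fell on genes of at least 10 CPM (28.2% of those genes). When single libraries were left out 1 to 4 fell (21.7% to 28.2%). Without the libraries of clone letter a, fewer of the 7 genes and a smaller share of all genes fell than with all libraries. That fit has 1 culture of Htt-25Q [V]. In it *NTH2* had a log2 fold change of -0.38, against -0.36 with all libraries. For Htt-103Q [*SLX5*] against Htt-103Q [V], DESeq2 called 2 higher (3.03% of all genes) and the likelihood ratio procedure 3 (4.98% of its 4158 genes). The fits without single libraries called 0 to 7 higher (0.0157% to 14.1% of all genes), of which 7 was the fit without Htt-103Q [V] replicate c. For the averaged *SLX5* effect DESeq2 called 2 higher (4.42% of all genes) and the likelihood ratio procedure 1 (6.23% of its 4158 genes). Fits without single libraries called 0 to 7 higher here (0.0157% to 12.8% of all genes). None of the 7 genes was called for *SLX5* in Htt-25Q cells or for the interaction under any setting. The cause of these differences was not tested.

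Signs turned only for values near 0 that were never called. *ATH1* in Htt-103Q [*SLX5*] against Htt-25Q [*SLX5*] ran from -0.069 to 0.022 when single libraries were left out, and its interaction from -0.0020 to 0.35, with -0.063 without the libraries of clone letter a. *TPS2* in Htt-25Q [*SLX5*] against Htt-25Q [V] had 0.0032 without those libraries. Deviations from group means of same-lettered cultures correlated at -0.145 to 0.21 over 15 pairs, and those of 30 other pairs at -0.227 to 0.227. Such deviations sum to 0 within groups of 2 or 3 cultures, so these values cannot settle whether clone letters pair the samples. Libraries of clone letter a held 1.02% to 2.4% of rRNA gene counts, against 0.254% to 0.958% in the others. A fit with the letter as a replicate block called 6 genes lower for Htt-103Q [V] against Htt-25Q [V] (28.6% of all genes), 4 for Htt-103Q [*SLX5*] against Htt-25Q [*SLX5*] (26.4%) and 0 for Htt-103Q [*SLX5*] against Htt-103Q [V]. With the replicate block, Htt-25Q [*SLX5*] against Htt-25Q [V] gave -0.025 for *TPS3*, -0.062 for *TSL1* and -0.0093 for *NTH2*. Depth did not limit the 7 genes, which had at least 1186 counts in each library.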

Other observations

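The genes on either side of the 7 were read as a description of their surroundings. Of 14 chromosomal neighbours 13 were tested, and in Htt-103Q [V] relative to Htt-25Q [V] 3 fell, 2 rose and 8 were not called, where 29.5% of all tested genes fell and 27.3% rose. *MEO1* (YBR126W-A), whose coding start faces that of *TPS1* across 457 bases that hold the STRE stretch printed for *TPS1*, fell by 1.41 on the log2 scale (SE 0.13, adjusted p = 1.86e-05 by edgeR's quasi-likelihood test), a larger difference than that of *TPS1* itself (-0.43, SE 0.13). *ECM15*, beside *NTH2*, fell by 0.82 (SE 0.08) and *SNF11*, beside *TPS2*, by 0.32 (SE 0.10). *PTC4*, on the other side of *TPS1*, rose by 0.37 (SE 0.07) and *RER2*, beside *NTH2*, by 0.28 (SE 0.11). Both tested neighbours of *NTH1* had small values that were not called, at -0.05 (SE 0.09) for *RMD1* and -0.08 (SE 0.08) for *YRB1*, next to the -1.17 of *NTH1*.

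Genes with a pattern over the 11 cultures most like each of the 7 were ranked by the root mean square difference of their log2 CPM, each gene's own mean subtracted, among the 5384 genes that averaged 10 CPM or more. *TSL1* was nearest to *GLC3*, the glycogen branching enzyme (0.079), and then to *AIM17* (0.109), and *TPS2* to *GSY1*, a glycogen synthase (0.055), and then to *GID11* (0.102). *NTH1* was nearest to *CQD1* and *UGP1* (0.08 each), and *NTH2* to *MDR1* and *TGL2* (0.06 each). *TPS1* was nearest to *SRV2* (0.06) and *RCK2* (0.07), *TPS3* to *LAM4* and *YDC1* (0.08 each) and *ATH1* to *DGR2* and *RFX1* (0.08 each), where the median over all genes ranged from 0.29 to 0.75. Among the 7, *TPS1* and *TPS3* were closest to each other (0.06), and *TSL1* and *ATH1* were farthest apart (0.59). These distances share libraries and carry no test.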
